A study of Mus musculus with 383 samples.

Results

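Elastic fibre and microfibril genes were followed as a set of 10 (Eln, Fbn1, Fbn2, Mfap2, Mfap4, Mfap5, Emilin1, Fbln1, Fbln2 and Fbln5) among 49585 genes counted in single tumour cells of mouse skin squamous cell carcinoma. The members were taken by name, and each was found once in the count table. The tumours came from mice carrying, among their alleles, Lgr5CreER, p53fl/fl and Rosa26-YFP+/+, in which a Cre recombinase driven by the hair follicle stem cell gene Lgr5 switches on YFP and deletes p53 in the same cells. All cells of both groups came from this one genotype and were sorted as YFP-positive, live and single after collagenase digestion, as YFP+/Epcam+ (Epcam-positive) or YFP+/Epcam- (Epcam-negative). Epcam is an adhesion protein of epithelia, and its loss is used as a sign of epithelial to mesenchymal transition (EMT). Of 70 Epcam-positive cells 62 were kept, and of 310 Epcam-negative cells all but 47, by a filter of at least 100000 gene reads, at least 2000 genes, at most 20% mitochondrial reads and at most 50% spike-in reads. The labels name no mouse, tumour, age or time, so each population counts as 1 sample, and no test between them was possible.

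Elastic fibres give skin, vessels and lung their recoil. They consist of a core of crosslinked elastin laid on a scaffold of microfibrils, which are polymers of fibrillins decorated with small microfibril-associated glycoproteins. EMILINs and fibulins sit at the interface or help to deliver elastin to the microfibrils, lysyl oxidases crosslink the elastin, and latent TGF-beta binding proteins tether the growth factor TGF-beta to the same scaffold. In skin, dermal fibroblasts are the best known source of these proteins, whereas fibulins also occur in basement membranes next to epithelia.

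Kept cells had 109743 to 730528 gene reads in the Epcam-positive and 104330 to 900492 in the Epcam-negative population (medians 413142 and 414731). Levels below are reads summed over the cells of a population per 1000000 gene reads (counts per 1000000, CPM), with exact 95% Poisson intervals that cover counting error only. Reads carried no molecular identifiers, so they are not independent molecules. Epcam was at 1069 and 22.7 CPM (Epcam-positive first) and Vim, the mesenchymal intermediate filament gene, at 592 and 5809 CPM. All 5 keratinocyte markers were 2-fold or more higher in the Epcam-positive and all 4 mesenchymal markers in the Epcam-negative population. Of 2 wells set up with 0 cells, 1 in plate row B held 99241 gene reads from 8248 genes and had Epcam and Krt14 reads, which goes against its label, and the other, in row E, held 4018. In these wells Fbln2 had 30 and 9 reads, Fbn1 9 and 3, Fbln1 2 and 2, Fbln5 0 and 2, and the other 6 members 0. The plate held the Epcam-positive sort in its first 3 rows and the Epcam-negative sort in the other 13, and population and plate row cannot be told apart. Plate rows and columns here follow the index pair in each sample title, a row for each second index and a column for each first index. The titles name no well position.

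Of the 10 genes, 9 exceeded their Epcam-positive level by 2-fold or more in the Epcam-negative population, on the scale of log2 of (CPM + 1). Among all 25013 genes with a read, 11.7% were that much higher, and among the 9574 genes at 10 CPM or more in either population, 15.3%. The remaining gene, Fbln1, was higher in Epcam-positive cells by less than 2-fold. The median log2 ratio of Epcam-negative over Epcam-positive was 3.55 for the 10 genes, against -0.08 for the genes at 10 CPM or more and 0.03 for those with a read. Mfap4 had 0 Epcam-positive reads, and its log2 ratio was 1.39, or 1.23 if 3 reads are assumed there. Both values lie below the median, so this choice could not change it. Of the 10 genes, 8 reached 10 CPM in a population, whereas Fbn2 and Mfap4 did not. Together the 10 genes had 558 CPM in the Epcam-positive population and 3842.5 CPM in the Epcam-negative one. In a single Epcam-negative cell the sum ran from 20.6 to 22769 CPM with a median of 2997, and in a single Epcam-positive cell from 0 to 2997 CPM with a median of 397.

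**Figure D1:**
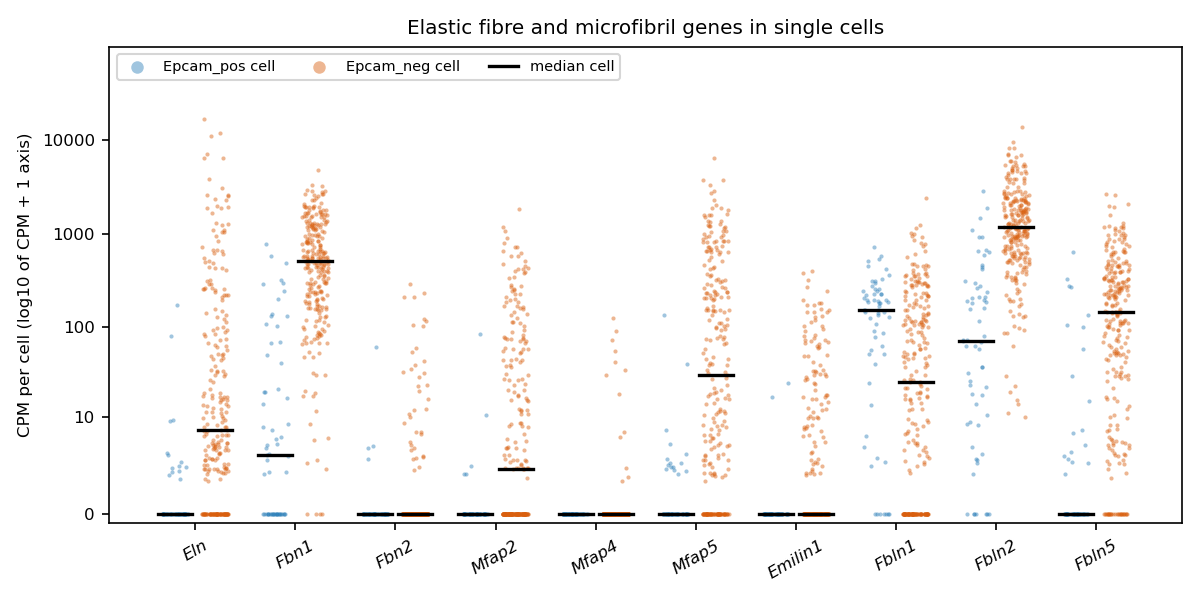
Level of each gene in each kept cell, in CPM on a log10(CPM + 1) axis, with Epcam-positive cells in blue, Epcam-negative cells in orange and the median cell as a black bar. Fbn1, Fbln2 and Fbln5 had a read in 98.5%, 100% and 90.1% of Epcam-negative cells, and Eln, Mfap2 and Mfap5 in 73.8%, 50.6% and 75.3%. All of these genes reached over 1000 CPM in an Epcam-negative cell, and Fbln1 had its higher median in Epcam-positive cells.

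Eln encodes tropoelastin, the soluble subunit of the elastic core (ENSMUSG00000029675.12, chromosome 5 from 134702593 to 134747323 of GRCm38, minus strand). Single Epcam-positive cells ran from 0 to 173.5 CPM (median 0) and single Epcam-negative cells from 0 to 17004 CPM (median 6.99). Summed, Eln was at 4.63 CPM (3.82 to 5.56) in the Epcam-positive population and at 388 CPM (384 to 392) in the Epcam-negative one, and the log2 ratio was 6.11 (5.89 to 6.33). The Epcam-negative level was carried by few cells: the 7 with the most Eln reads held at least 50% of them, and the 27 highest cells held 85.9%. The upper quartile of Epcam-negative cells was 95.4 CPM, so most of these cells had little Eln while the population sum was high. Of the Epcam-positive Eln reads, 43.5% came from 1 cell, and without it the level there was 2.65 CPM.

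Fbn1 encodes fibrillin-1, the main fibrillin of microfibrils after birth (ENSMUSG00000027204.13, chromosome 2 from 125300594 to 125507993, minus strand). It ran from 0 to 774.5 CPM in single Epcam-positive cells (median 3.33) and from 0 to 4805 CPM in single Epcam-negative cells (median 509). The cells overlapped in range, but the lower quartile of Epcam-negative cells, 187.6 CPM, was above the upper quartile of Epcam-positive cells, 47.3 CPM. The summed levels were 53.1 CPM (50.3 to 56.04) and 772 CPM (767 to 777), a log2 ratio of 3.84 (3.76 to 3.91). Unlike Eln, it was spread over the population, with 41 cells needed to reach 50% of the Epcam-negative reads. The exons of Fbn1 overlap those of Gm9913 on the other strand over 2442 bases, and the strand setting of the counting is not given in the sources used here. Fbn2, which encodes fibrillin-2 of developing tissues (ENSMUSG00000024598.8, chromosome 18), was at 1.61 CPM (1.15 to 2.19) and 7.81 CPM (7.29 to 8.36), with a median of 0 CPM in the single cells of both populations. Its highest cells had 59.9 CPM among Epcam-positive and 286.6 CPM among Epcam-negative cells, and 38 Epcam-negative cells had a read. In the Epcam-positive population 90% of the 40 Fbn2 reads were in 1 cell, and without it the level was 0.165 CPM. The log2 ratio of Fbn2 was 1.75 (1.45 to 2.05), and 2.65 when the cell with most reads was left out of each population.

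Mfap2 and Mfap5 encode the microfibril-associated glycoproteins MAGP-1 and MAGP-2, which bind fibrillin. Mfap5 (ENSMUSG00000030116.14, chromosome 6 from 122505845 to 122529290, plus strand) had the largest log2 ratio of the set, 6.63 (6.37 to 6.89), with 2.58 CPM (1.98 to 3.29) in the Epcam-positive population and 354 CPM (350 to 357) in the Epcam-negative one. Single cells ran from 0 to 135.3 CPM (median 0) in the Epcam-positive and from 0 to 6532 CPM (median 29.8) in the Epcam-negative population. The Epcam-positive reads came mostly from the cell that was also highest for Eln, with 60.9% of them, and without it the level was 1.02 CPM. That cell had 246.4 CPM of Epcam, 7035 CPM of Krt14, 3273 CPM of Vim and 753 CPM of Col1a1, so it held epithelial and mesenchymal transcripts side by side. Mfap2 (ENSMUSG00000060572.17, chromosome 4 from 141010418 to 141015984, plus strand) was at 1.85 CPM (1.36 to 2.47) and 76.6 CPM (74.9 to 78.3), a log2 ratio of 4.77 (4.48 to 5.04). Its single cells ran from 0 to 84.6 CPM (median 0) and from 0 to 1829 CPM (median 2.01). In the Epcam-positive population 86.96% of the 46 Mfap2 reads lay in 1 cell, and without it the level was 0.246 CPM.

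Mfap4 encodes a fibrinogen-related glycoprotein found on elastic fibres (ENSMUSG00000042436.12, chromosome 11 from 61485431 to 61488900, plus strand), and it was close to absent. It had 0 reads in Epcam-positive cells, which allows up to 0.121 CPM with 3 reads over the population, and 1.62 CPM (1.39 to 1.88) in the Epcam-negative population, from 13 cells. Against that floor the Epcam-negative level was at least 13.4-fold higher, a bound that covers counting error only. The highest cell had 123.3 CPM and 31.6% of the reads. Emilin1 encodes a glycoprotein at the interface of elastin and microfibrils (ENSMUSG00000029163.9, chromosome 5 from 30913402 to 30921277, plus strand). It was at 0.604 CPM (0.338 to 0.996), from 15 reads in 2 cells, and at 21.7 CPM (20.8 to 22.6), a log2 ratio of 3.82 (3.50 to 4.09). Single cells reached 24.3 CPM in the Epcam-positive and 398 CPM in the Epcam-negative population, with a median of 0 in both, and 37.3% of Epcam-negative cells had an Emilin1 read. Leaving out the top Epcam-positive cell gave 0.287 CPM of Emilin1 there.

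The 3 fibulin members behaved differently from one another. Fbln5, whose product binds tropoelastin and the crosslinking enzyme LOXL1 and is needed for elastic fibre assembly in mouse skin (ENSMUSG00000021186.8, chromosome 12 from 101746565 to 101819055, minus strand), was at 30.1 CPM (27.95 to 32.3) and 301.1 CPM (297.8 to 304.4), a log2 ratio of 3.28 (3.18 to 3.38). Single cells ran from 0 to 636 CPM (median 0) among Epcam-positive and from 0 to 2653 CPM (median 142.9) among Epcam-negative cells. Of the Epcam-positive Fbln5 reads, 43.4% came from 1 cell, and without it the level was 17.4 CPM. Fbln2, a large fibulin of basement membranes and elastic fibres (ENSMUSG00000064080.12, chromosome 6 from 91212455 to 91272540, plus strand), was the member with the most reads in both populations. It was at 271.4 CPM (264.97 to 277.97) and 1779 CPM (1771 to 1787), a log2 ratio of 2.71 (2.67 to 2.74). Single cells ran from 0 to 2855 CPM (median 70.7) and from 10.1 to 14021 CPM (median 1175), and Fbln2 was the only member with a read in every kept Epcam-negative cell.

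Fbln1, a fibulin of basement membranes and vessel walls (ENSMUSG00000006369.14, chromosome 15 from 85205949 to 85286535, plus strand), went the other way. Its level was 191.98 CPM (186.6 to 197.5) in the Epcam-positive population and 141.5 CPM (139.3 to 143.8) in the Epcam-negative one, and the log2 ratio was -0.44 (-0.48 to -0.39). Single Epcam-positive cells ran from 0 to 718 CPM (median 152.5, quartiles 50.9 and 238.6), and single Epcam-negative cells from 0 to 2436 CPM (median 24.8, quartiles 0 and 164.9). The medians lay further apart than the sums, because the upper tail of Epcam-negative cells was long: 10% of cells lay above 359.5 CPM in the Epcam-positive and above 359.7 CPM in the Epcam-negative population. In the Epcam-positive population the reads were spread over cells, with 6.54% in the highest cell. The ratio stayed below 0 in both blocks of plate columns, at -0.32 in columns 1 to 12 and -0.63 in columns 13 to 24, and each block has cells of both populations.

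The share of cells in which a gene was present was taken after drawing 100000 gene reads per cell at random (thinning), with 5 or more reads (50 CPM) as the rule. Fbln2 was present in 97.3% (94.6% to 98.9%, Clopper-Pearson) of Epcam-negative and 58.1% (44.8% to 70.5%) of Epcam-positive cells. Fbn1 was present in 92.02% (88.1% to 94.99%) and 25.8% (15.5% to 38.5%), and Fbln5 in 66.2% (60.1% to 71.9%) and 12.9% (5.74% to 23.9%). These were the widespread members of the Epcam-negative population. Mfap5 was present in 46.4% and 3.23%, Eln in 31.6% and 3.23%, and Mfap2 in 26.2% and 1.61% of cells, so that at this level they were found in fewer than 50% of Epcam-negative cells. Emilin1 was present in 15.6% of Epcam-negative cells, Fbn2 in 4.56% and Mfap4 in 1.14%, and each in 0 of 62 Epcam-positive cells, which allows a share of up to 5.78%. Fbln1 was again alone, present in 45.6% (39.5% to 51.9%) of Epcam-negative and 72.6% (59.8% to 83.1%) of Epcam-positive cells.

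The wells set up with 0 cells are set beside the cells in raw reads, not scaled to depth. For Fbln2 and Fbn1 the limit is the count of the row B well. Its Epcam (695 CPM) and Krt14 (9029 CPM) go against its label, and its 99241 gene reads are fewer than those of any kept cell. For both reasons its counts are no measure of background for these genes. The median Epcam-positive cell had 29 Fbln2 reads, about as many as the 30 in the row B well, and 1.5 Fbn1 reads, fewer than the 9 there, and 30 and 18 of the 62 cells exceeded that well. For Fbln1 the median Epcam-positive cell had 56 reads against at most 2 in a well with 0 cells, and 50 of 62 cells had more than 2. Of Epcam-negative cells, 93.9% exceeded the wells with 0 cells for Fbln2, 93.5% for Fbn1, 77.9% for Fbln5, 75.3% for Mfap5, 73.8% for Eln, 60.8% for Fbln1 and 50.6% for Mfap2, where for Mfap5, Eln and Mfap2 a single read is enough. The part of carry-over between wells in the Epcam-positive levels of Fbln2, Fbn1 and Fbln5 was not tested. With 20 thinned reads (200 CPM) as the rule, Fbln2 was present in 91.3% of Epcam-negative and 33.9% of Epcam-positive cells, Fbn1 in 72.6% and 11.3%, and Fbln1 in 23.6% and 41.9%.

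**Figure D2:**
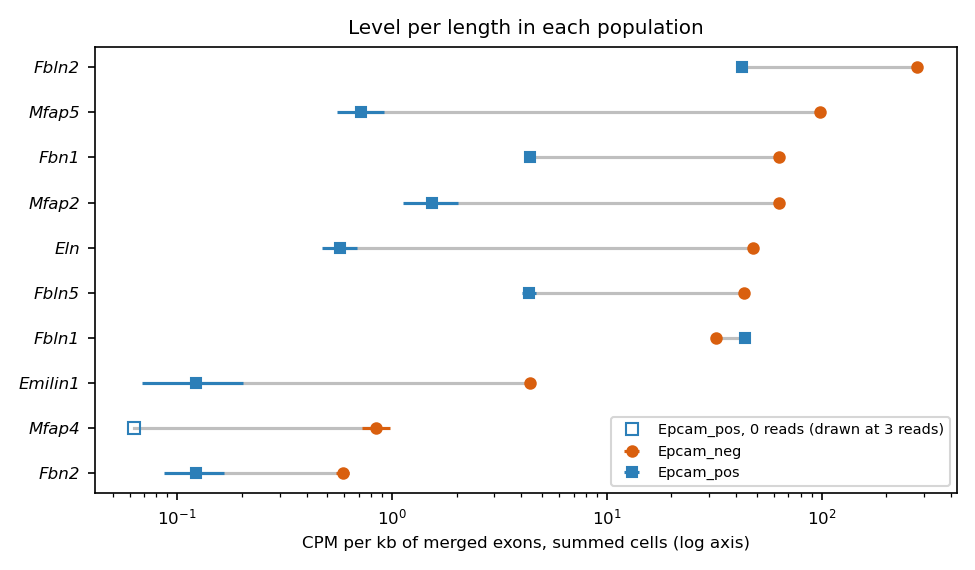
Summed reads of each gene in CPM per kb of merged exons, on a log axis, in Epcam-positive (blue squares) and Epcam-negative (orange circles) cells with 95% Poisson intervals, and the Mfap4 square open because it had 0 reads and is drawn at 3. In Epcam-negative cells Fbln2 (279.3 CPM per kb) led and Fbn2 (0.591) came last, and Fbln1 is the only gene with its square to the right of its circle.

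Levels of different genes were set against each other only per length, as CPM per kb of merged exons. In Epcam-negative cells the order was Fbln2 at 279.3, Mfap5 at 98.5, Fbn1 at 63.6, Mfap2 at 63.2, Eln at 47.9, Fbln5 at 43.6, Fbln1 at 32.4, Emilin1 at 4.39, Mfap4 at 0.844 and Fbn2 at 0.591 CPM per kb. Fbn1 (63.2 to 64.1) and Mfap2 (61.9 to 64.6) could not be ordered even by counting error, and the spread between cells was far wider than the gaps from Mfap5 to Fbln1. In Epcam-positive cells Fbln1 at 43.95 and Fbln2 at 42.6 CPM per kb stood above all others, which reached at most 4.38. By reads, Fbln2 and Fbln1 made up 48.7% and 34.4% of the set in Epcam-positive cells. Among Epcam-negative reads of the set Fbln2 kept 46.3%, Fbn1 had 20.1%, Eln 10.1% and Mfap5 9.20%, and Fbln1 had 3.68%.

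The start regions of members are shown because 3 of these genes were higher in Epcam-negative cells while Fbln1 was not. RefSeq start windows of 300 bases (250 before and 50 after the start, GRCm38.p6) were found for 6 of the 10 members, some with more than 1 start, and those of Fbln1 (chr15:85205758-85206057, plus strand), Fbln2 (chr6:91212514-91212813, plus strand), Fbn1 (chr2:125506389-125506688, minus strand) and Mfap2 (chr4:141010174-141010473, plus strand) are printed 5′ to 3′ in the direction of the gene, with a searched motif in capitals where one was found.
Fbln1: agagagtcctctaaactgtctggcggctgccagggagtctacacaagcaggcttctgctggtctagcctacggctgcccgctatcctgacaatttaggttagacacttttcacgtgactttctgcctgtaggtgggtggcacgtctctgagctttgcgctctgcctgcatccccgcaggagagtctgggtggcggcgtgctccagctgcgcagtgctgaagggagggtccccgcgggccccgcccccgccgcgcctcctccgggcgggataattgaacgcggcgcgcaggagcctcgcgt
Fbln2: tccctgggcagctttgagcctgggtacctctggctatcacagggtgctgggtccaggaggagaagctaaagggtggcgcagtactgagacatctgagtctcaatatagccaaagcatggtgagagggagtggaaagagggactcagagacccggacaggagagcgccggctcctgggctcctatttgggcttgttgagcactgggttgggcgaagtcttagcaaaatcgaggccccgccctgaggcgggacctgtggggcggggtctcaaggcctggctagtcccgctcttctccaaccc
Fbn1: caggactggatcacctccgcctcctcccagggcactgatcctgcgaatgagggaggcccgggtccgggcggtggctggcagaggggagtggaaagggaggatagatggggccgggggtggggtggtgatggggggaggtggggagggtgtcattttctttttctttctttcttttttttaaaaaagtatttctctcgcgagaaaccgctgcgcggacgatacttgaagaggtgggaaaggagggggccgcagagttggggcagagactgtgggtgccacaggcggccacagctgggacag
Mfap2: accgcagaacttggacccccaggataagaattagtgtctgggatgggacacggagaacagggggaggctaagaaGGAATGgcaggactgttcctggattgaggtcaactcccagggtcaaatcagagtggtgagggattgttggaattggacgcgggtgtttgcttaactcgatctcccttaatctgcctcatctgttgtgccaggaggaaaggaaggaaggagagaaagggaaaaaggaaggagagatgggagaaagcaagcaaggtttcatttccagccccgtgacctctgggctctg
Both strands were searched for CAGGTG, the E-box bound by Snail and Zeb factors, for TGANTCA of AP-1, for GGAATG of TEAD factors and for TATAAA. Of all 32851 start windows of this length, 20.2%, 7.81%, 14.7% and 13.6% hold them. Among the 9 windows of the members, 1 held a match, GGAATG in the Mfap2 window at position -176 from the start. A match is a description of the letters only. The GC content was 64% with 24 CpG in the Fbln1 window, 60.3% with 10 CpG in that of Fbln2, 60.3% with 14 in that of Fbn1 and 52% with 6 in that of Mfap2, against a median of 52.7% GC over all windows. The other start window of Fbln1 has 51.7% GC with 12 CpG and that of Mfap2 68% with 22, so the 2 genes are not set apart by these measures.

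**Figure D3:**
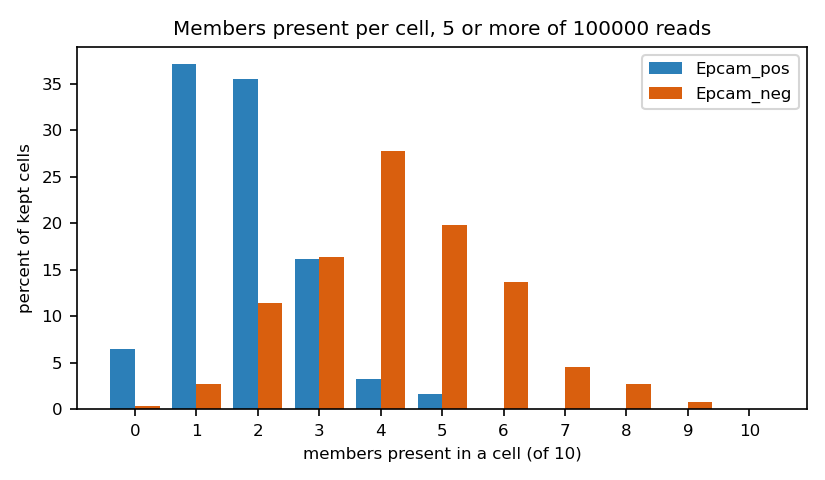
Percent of kept cells of each population (Epcam-positive in blue, Epcam-negative in orange) by how many of the 10 genes were present, at 5 or more of 100000 thinned reads. Epcam-negative cells centre on 4 genes with a range of 0 to 9, and Epcam-positive cells on 2 with a range of 0 to 5.

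Single cells differed in how many of the genes they had. The median Epcam-negative cell had 4 of the 10 present (quartiles 3 and 5, range 0 to 9), and the median Epcam-positive cell had 2 (quartiles 1 and 2, range 0 to 5). In 69.2% of Epcam-negative cells at least 4 genes were present, as against 3 of 62 Epcam-positive cells (4.84%). No cell had all 10, and 9 Epcam-negative cells had 8 or more.

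Within the Epcam-negative population the members differed in how far their levels went together. Across its kept cells, after thinning, the 28 pairs among the 8 members at 10 CPM or more had Spearman rho from -0.20 to 0.42 with a median of 0.15, and 23 pairs were above 0. These cells share a plate, a sort and similar depth, counts of the rarer genes are sparse, and the values are given as a description. No values for pairs of other genes are given beside them, so whether they are high or low for such genes was not tested. The highest rho was that of Eln and Mfap2, 0.42. Eln was present in 83 cells and Mfap2 in 69, and both in 40, which is 15.2% of cells where the product of the single shares is 8.28%. All 83 cells with Eln present also had Fbn1 and Fbln2 present, and 79.5% had Fbln5, where 92.02%, 97.3% and 66.2% of all Epcam-negative cells did. Fbn1 had a rho of 0.36 with Eln and of 0.30 to 0.31 with Mfap2, Mfap5, Emilin1 and Fbln5.

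Fbln2 had a rho of 0.39 with Mfap5, 0.17 with Fbn1, 0.06 with Fbln5, -0.02 with Emilin1, -0.03 with Eln, -0.06 with Mfap2 and -0.20 with Fbln1. Mfap5 and Fbn1 were thus above 0 with Fbln2 and, at 0.31 and 0.36, with Eln. Fbln1 had its highest rho among these 8 with Eln, at 0.24, and 0.03 with Fbn1. For the basal keratin Krt14, a transcript that part of the Epcam-negative cells retain, rho was -0.38 with Fbln2, -0.36 with Mfap5, -0.31 with Fbn1 and -0.25 with Mfap2, and 0.13 with Fbln1 and -0.04 with Fbln5. The members' rho with gene reads per cell before thinning ran from -0.09 (Eln) to 0.15 (Fbln1), and with gene reads per spike-in read, a measure of RNA content, it was -0.31 for Eln and -0.30 for Mfap2, so cells high in these 2 genes tended to have fewer gene reads per spike-in read.

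**Figure D4:**
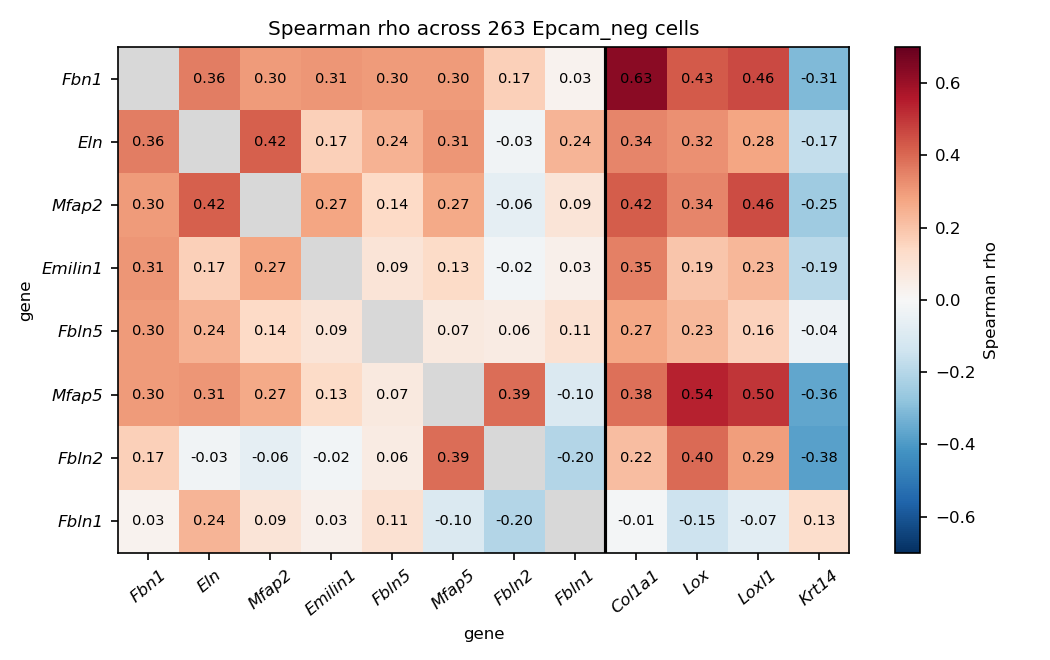
Spearman rho across the kept Epcam-negative cells at 100000 thinned reads each, between the 8 members at 10 CPM or more and, right of the line, Col1a1, Lox, Loxl1 and Krt14. Red is positive and blue negative. Fbn1 with Col1a1 (0.63) and Mfap5 with Lox (0.54) are the highest values, and the Fbln1 row is near or below 0 for these matrix genes.

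The same split was visible in summed levels. Krt14 was present in 47.9% of Epcam-negative cells and not in 52.1%, and 5.32% of cells at 5 to 9 thinned reads and 39.2% at 1 to 4 lay near the limit. In cells with and without Krt14 present, Eln was at 168.8 and 578 CPM, Mfap2 at 45.7 and 103.5 CPM, Mfap5 at 179.01 and 505 CPM, Fbn1 at 564 and 953 CPM and Fbln2 at 1231 and 2256 CPM. The sums of these 5 genes were thus higher where Krt14 was not present, and so was that of Emilin1, at 13.7 and 28.7 CPM. The median cell had 4.68 and 13.3 CPM of Eln, 0 and 4.13 of Mfap2 and 5.28 and 152.7 of Mfap5. It had 388 and 646 CPM of Fbn1, 817 and 1620 of Fbln2, and 0 of Emilin1 in both. No share of all genes is given beside this split. Fbln5 was at 309.2 and 294.1 CPM and Fbln1 at 135.9 and 146.4 CPM, sums that differ little beside the spread of single cells. The median cell had 166.8 and 136.1 CPM of Fbln5. For Fbln1 it had 41.4 and 15.7 CPM, higher with Krt14 present, which is opposite to the sums. Among the 10 Epcam-negative cells with Epcam present, the median cell had 42.8 CPM of Fbn1, 0 CPM of Eln and 35.5 CPM of Fbln1.

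The 10 genes whose pattern over Epcam-negative cells was most like that of the set included 5 collagen genes. Likeness was the rho with the mean of the members' standardised log2 levels, over 3320 genes at 50 CPM or more and present in at least 30% of cells. The top 10 were Postn (0.66), which encodes the matricellular periostin, Col1a1 (0.63), Pdgfrl (0.63), Col3a1 (0.62), Col5a2 (0.62), Sparc (0.61), Fstl1 (0.60), Col12a1 (0.60), Col1a2 (0.60) and Aspn (0.59). That mean had a rho of -0.41 with the mitochondrial share of a cell, 0.17 with its gene reads and 0.03 with its number of genes, and the part of cell quality in these values was not tested. Taken singly, Fbn1 was most like the collagen genes Col1a1 (0.63) and Col3a1 (0.62), Eln like Aspn (0.56) and Postn (0.52), Mfap2 like Postn (0.53) and Fmo2 (0.50), and Mfap5 like Ctla2a (0.56) and the crosslinking enzyme gene Lox (0.54). Fbln2 had other neighbours, Tmem123 (0.65) and the Hippo pathway coactivator gene Yap1 (0.61). Fbln5 was most like Ogn (0.41) and Grn (0.41), and Fbln1 like Gpc1 (0.40) and Ctsc (0.39). Sfrp2, a secreted Wnt modulator, had a rho of 0.49 with Mfap2, 0.38 with Mfap5 and 0.36 with Eln. Acta2, of smooth muscle actin, had 0.26 with Mfap5, 0.20 with Fbln2 and -0.15 with Eln.

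Genes that act with elastic fibres were read from a list of 52, of which 39 were at 10 CPM or more in a population. Of these, 27 reached a 2-fold excess in the Epcam-negative population (15.3% of all genes at 10 CPM or more did), 2 in the Epcam-positive one (12.9%), and 10 lay between, with a median log2 ratio of 2.45. A gene can pass the 10 CPM limit through 1 population alone, which by itself favours an excess in that population. The shares of all genes were taken under the same limit. Of the elastin and collagen crosslinking enzymes all 4 measured reached the 2-fold excess, with Lox at 5.56 and 739 CPM and Loxl1 at 1.45 and 290.96 CPM (here and below, Epcam-positive first). All 4 passed the 10 CPM limit only through the Epcam-negative population. Loxl4, below 10 CPM in both populations, was at 2.17 and 1.74 CPM. Of the other fibulins 3 of 4 reached the 2-fold excess, among them Efemp1 (38.3 and 336 CPM) and Efemp2 (22.2 and 188.1 CPM), the latter needed for elastic fibre formation, whereas Fbln7 was at 54.1 and 31.9 CPM. The only other EMILIN family gene at 10 CPM was Emilin2 (1.29 and 22.2 CPM), and Mmrn2 was at 0.725 and 2.62 CPM. Leaving out the top Epcam-positive cell of each gene gave 3.14 CPM of Lox, 0.163 CPM of Emilin2 and 0.124 CPM of Mmrn2 there.

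Genes that tie microfibrils to TGF-beta had a median log2 ratio of 1.82 for the binding proteins, below that of the members. Of the 4 latent TGF-beta binding proteins 3 reached the 2-fold excess, with Ltbp1 at 65.01 and 295.8 CPM, while Ltbp4 was at 70.2 and 104.8 CPM. The ligand genes Tgfb2 and Tgfb3 were at 15.5 and 109.7 CPM and at 41.7 and 81.6 CPM, log2 ratios of 2.75 and 0.95. Of 5 measured microfibril-associated ADAMTS family genes 3 were at least 2-fold higher, with Adamtsl3 at 4.51 (2.09 without its top cell) and 32.7 CPM, and Adamtsl5 was at 34.9 and 22.3 CPM. All 3 passed the 10 CPM limit only through the Epcam-negative population. All 5 measured partner matrix genes were higher, led by Fn1, the fibronectin on which microfibrils assemble (101.6 and 3829 CPM), and Dcn (81.3 and 3620 CPM), the proteoglycan decorin.

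Integrins are the cell's receptors for fibrillins and fibulins. Of 8 measured, 5 reached the 2-fold excess in the Epcam-negative population and 1 in the Epcam-positive one. Among all genes at 10 CPM or more, 15.3% and 12.9% did. Of the 5, Itgb3 and Itga8 passed the 10 CPM limit only through the Epcam-negative population. Itgb6, higher in Epcam-positive cells, passed it only through the Epcam-positive population. Itgb1 was at 591 and 1083 CPM and Itgb5 at 56.7 and 184.1 CPM. Itgb6, the beta subunit of an epithelial integrin that activates TGF-beta, went against the list at 39.5 and 0.578 CPM (0.262 without the top Epcam-negative cell). Of 5 measured elastin-degrading enzymes 2 were at least 2-fold higher and 1 lower: Mmp2 was at 97.1 and 1616 CPM, the cathepsin Ctsl at 1910 and 2525 CPM, and the gelatinase Mmp9 at 245.6 and 42.8 CPM. For Mmp9, 62.5% of the Epcam-negative reads lay in 1 cell, and without it the level was 16.2 CPM. Ctsk, the other of the 2 higher enzymes, passed the 10 CPM limit only through the Epcam-negative population. Furin, which cleaves profibrillin, was at 29.9 and 28.04 CPM, so it differed little while Fbn1 differed 14.5-fold.

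**Figure D5:**
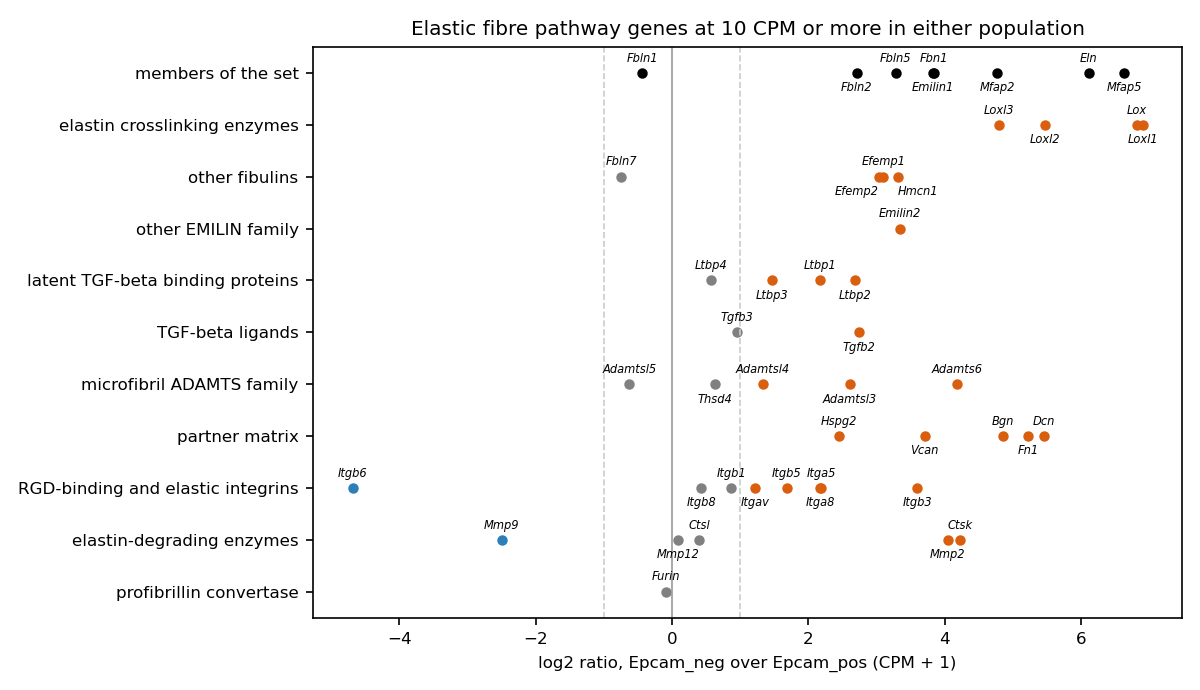
Log2 ratio of Epcam-negative over Epcam-positive CPM (+ 1) for the members (black) and the listed pathway genes at 10 CPM or more in either population, coloured orange where the Epcam-negative level was 2-fold or more above the other, blue where the Epcam-positive level was, and grey between, with dashed lines at 2-fold. Crosslinking enzymes lie to the right with most members, Itgb6 and Mmp9 lie to the left, and Fbln1 and Fbln7 lie left of 0.

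Since fibroblasts also make these proteins, markers of other cell types were read beside the set. Of 6 dermal fibroblast markers, 4 reached 10 CPM, and the 6 summed to 319 CPM in the Epcam-positive population and 680 CPM in the Epcam-negative one. Pdgfra was at 14.1 (8.31 without its top cell) and 262.4 CPM, Dpt at 0.121 and 119.5 CPM, Lum at 0.201 and 89.4 CPM and Cd34, also a hair follicle stem cell gene, at 304.3 and 207.6 CPM, while Pi16 and Clec3b were at 0.112 and 0.652 CPM in Epcam-negative cells (0.0187 and 0.150 without the top cell of each). Of the Epcam-negative cells 41.4% had 2 or more of the 6 present, 42.2% had 1 and 16.3% had 0. At least 1 was also present in 41 of 62 Epcam-positive cells. Cd34 was present in 61.3% of Epcam-positive and 51.3% of Epcam-negative cells, so a single marker can be Cd34 alone. In Epcam-negative cells with 2 or more, 1 and 0 markers, Eln was at 622, 275.5 and 25.8 CPM and Mfap2 at 129.7, 45.2 and 11.0 CPM. Fbln5 was at 394.5, 245.5 and 186.7 CPM and Fbn1 at 956, 678 and 504 CPM. In the cells with 0 markers, leaving out the top cell of each gene gave 9.32 CPM of Eln and 6.96 CPM of Mfap2. Fbln2 ran the other way, at 1493, 1724 and 2750 CPM, and Mfap5 was at 499, 237.7 and 255.3 CPM. The cells had been sorted by YFP, and the part of any fibroblasts in these levels was not tested. In Epcam-negative cells the immune markers summed to 20.6 CPM with Ptprc at 0.0932 CPM (0.00935 without its top cell), the endothelial ones to 4.66 CPM with Tek and Emcn at 0, the pericyte and smooth muscle ones to 52.9 CPM, of which Cspg4 made up 37.8 CPM, the melanocyte ones to 1.81 CPM and the erythroid ones to 0.270 CPM. In Epcam-positive cells these sums were 25.4, 15.7, 16.5, 2.25 and 1.65 CPM.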

How the data were processed

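One allele of the mice is not reported here. Single cells were sequenced by Smart-seq2, which amplifies full-length cDNA. The authors deposited raw read counts per gene and spike-in for each well. The submitters' processing notes name cutadapt 1.13, STAR 2.5.2b and HTSeq 0.6.0 with the build GRCm38. For the gene annotation and the strand setting, the release and value used are not given. Of 49585 gene identifiers, 49326 were given a symbol from GENCODE vM21, which also gave positions and merged exon lengths.

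Counts were summed over kept cells and scaled to CPM. Each log2 ratio sets Epcam-negative CPM over Epcam-positive CPM after adding 1 to both, with conditional binomial intervals. Each population is 1 sample, so no test was made. Genes reaching 10 CPM in a population are called measured. Cells were thinned without replacement to 100000 reads. Alternatives changed the cell filter, scaling, pseudocount, plate columns, cells left out and the limit for a gene to be present. Steps were tested on simulated data. Python 3.11.15, numpy 2.4.6, scipy 1.17.1 and, for TMM factors, edgeR 4.0.16 were used.

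Members and lists were chosen with earlier results of these data known. Named beyond the members are, per list, the 2 genes highest in either population and any measured gene past 2-fold against its list, and the genes most like the members. Col1a1, Acta2, Sfrp2, Fbln7, Ctsk, Loxl4, Itgb3, Itga8 and the cell type markers given singly were chosen after their values were seen.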

Additional observations from a re-analysis of the deposited data

Results flagged for a closer look

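The well set up with 50 Epcam-negative cells entered no comparison, and 8 of the 10 genes had more than 3 reads there and more than in either well set up with 0 cells. Of its 154897 gene reads, 359 were of Fbln2, 81 of Fbn1, 49 of Eln, 27 of Mfap5, 24 of Fbln5, 12 of Fbln1, 9 of Fbn2 and 4 of Mfap2, where the wells with 0 cells had at most 30 of Fbln2, 9 of Fbn1, 2 of Fbln5, 2 of Fbln1 and 0 of the others. In CPM with 95% Poisson intervals, Eln was at 316 (234.03 to 418), Fbn1 at 523 (415 to 650), Mfap5 at 174.3 (114.9 to 253.6), Fbln5 at 154.9 (99.3 to 230.5), Fbln1 at 77.5 (40.03 to 135.3) and Fbln2 at 2318 (2084 to 2570). Fbn2 was at 58.1 CPM (26.6 to 110.3) in that well, against 7.81 CPM in the summed single cells. Mfap4 had 0 reads there, where 3 reads would be 19.4 CPM and the exact 95% upper limit was 23.8 CPM.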

How the results depend on the processing

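The number of genes with a 2-fold or larger excess in the Epcam-negative population was 9 of 10 under 10 of the 12 alternatives. It was 7 of 10 with a pseudocount of 10 CPM, where Fbn2 fell to 0.62 and Mfap4 to 0.22 on the log2 scale, and 7 of 8 among members at 10 CPM or more. Of those 8, Eln, Mfap2, Mfap5 and Emilin1 passed that limit only through the Epcam-negative population. Passing in this way favours an excess there, so the count of 7 of 8 adds no support. The median log2 ratio, 3.55 as reported, was 3.31 with the mean of per-cell CPM, 3.66 with TMM factors, 3.21 per spike-in read, 2.77 with a pseudocount of 10 CPM, 3.29 in plate columns 1 to 12, 3.98 without the cell with most reads in each population and 3.83 among members at 10 CPM or more. Before 1 CPM is added, the TMM, median-of-ratios and spike-in scalings shift every log2 ratio by 0.13, 0.11 and -0.35, and low genes shift less after it. No gene changed direction under 11 alternatives each, and Fbln1 ran from -0.79 (per spike-in read) to -0.31 (TMM factors). The median number of genes present in an Epcam-negative cell, 4, was 5 at 1 thinned read, 3 at 20 and 4 otherwise. With no filter, 44 Epcam-negative cells were too shallow to thin. Levels in subsets of Epcam-negative cells without the top cell of a gene were added after seeing the data. No paired analysis was possible because the labels give no replicate numbers and each population is 1 sample. Depth limits most the Epcam-positive values of Emilin1, Fbn2, Mfap2 and Mfap4, which rest on 46 reads or fewer, and 1 cell held 53.3% to 90% of those of the first 3.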
